A study of Mus musculus with 4 samples.

Results

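Immediate early genes are switched on within minutes of a signal without new protein synthesis, and heat shock genes are switched on when proteins unfold. The first group encodes transcription factors (the FOS, JUN, EGR, NR4A and KLF families) together with brakes on the same signals, such as dual specificity phosphatases and inhibitors of NF-kappa-B. The second encodes chaperones that hold or refold client proteins and is driven mainly by heat shock factor. Both groups are also induced when a tissue such as lung is digested to single cells, so their transcripts record the living tissue and the preparation together.

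The members were 41 genes of these groups, 31 immediate early genes and 10 heat shock or chaperonin genes, chosen by symbol among 32285 genes in the tables. All 41 were found, and all 41 gene IDs matched the mouse annotation. Lungs were studied as single-cell RNA libraries made with the 10x Genomics Chromium 3′ version 3 kit, 1 library for each of 4 groups: WT without a tumor, WT with B16/F10 melanoma (a mouse melanoma line), LAIR1KO without a tumor and LAIR1KO with B16/F10 melanoma. LAIR1 is an inhibitory collagen receptor of immune cells. Each library pooled 3 hashtagged animals, which served as replicates 1 to 3 of a group. The labels give neither the age of the animals nor the time after tumor injection.

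The animals of a group shared 1 library, so the library and the group cannot be told apart, and p-values measure only the spread among the 3 animals prepared together. The groups also differed in sex. The WT normal animals carried the Y-linked transcript Ddx3y at 185 to 202 UMIs per 1000000 UMIs (CPM), whereas Xist was near 0 there and at 1120 to 1374 CPM in the other 3 groups. The LAIR1KO against WT comparison in tumor-bearing lung and the tumor comparison in LAIR1KO lung are therefore matched for sex, and the other 2 comparisons are not. Lair1 itself was as labelled in interstitial macrophage-like cells, with 208 unique molecular identifiers (UMIs, counted molecules) in 231 WT normal cells and 472 in 393 WT tumor-bearing cells, and 0 in 169 and 466 LAIR1KO cells.

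The libraries held 25216301 to 28034709 gene UMIs. Of 15793 cells past the filters, 8468 carried exactly 1 hashtag, and these gave 510 to 1050 cells per animal. A total of 1162 of them fell in clusters that could not be named, 26.06% of the LAIR1KO normal cells against 7.8% to 11.19% in the other groups. Cell classes were named from marker genes after clustering without the members, and their names end in "-like". Endothelial-like, fibroblast-like, interstitial macrophage-like and neutrophil-like cells reached 10 cells in all 12 animals. LAIR1KO normal replicate 1 was thin in 3 of them, with 17 interstitial macrophage-like, 14 fibroblast-like and 56 neutrophil-like cells.

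The promoter table from RefSeq (GRCm38.p6, 250 bases before to 50 after each start) held 33 of the 41 members among 27025 genes. The classical heat shock element, searched as a full copy on both strands, was found in 3 of 8 heat shock members in the table and in 0.662% of all genes. The 3 genes were the mitochondrial chaperonin pair Hspd1 and Hspe1, which fold proteins in the matrix, and Hsph1, an HSP70 nucleotide exchange factor. Hspd1 and Hspe1 lie head to head and share the element on opposite strands. Their windows are shown because both genes had the same difference in LAIR1KO lung (below), with the element in capitals. They lie at chr1:55088055-55088084 (minus strand), chr1:55088051-55088080 (plus strand) and, for Hsph1, within the transcript at chr5:149636279-149636308 (minus strand).
Hspd1: gcggggccTTCCGGAAGGTTCTAGAAcgga
Hspe1: acggtccgTTCTAGAACCTTCCGGAAggcc
Hsph1: gctgcagaTTCTGGAAAGTTCtcctcagta

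The cyclic AMP response element TGACGTCA was found in 2 members, Btg2 and Dusp1, and in 2.03% of all genes. The serum response CArG box was found in Dusp5, Egr2 and Zfp36 and in 1.81% of all genes. NF-kappa-B sites were found in 12 of 33 members, or 36.4%, against 9.55% of all genes. The AP-1 site TGANTCA was found in 2 members against 8.97% of all genes, and the EGR site in 1 member against 0.707%. Windows of these first 2 kinds are shown as examples of the signals that drive immediate early genes, at chr1:134079303-134079332 (Btg2, minus strand), chr17:26508597-26508626 (Dusp1, minus strand), chr7:28379267-28379296 (Zfp36, minus strand) and chr10:67537787-67537816 (Egr2, plus strand), with the motif in capitals.
Btg2: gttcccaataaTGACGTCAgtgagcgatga
Dusp1: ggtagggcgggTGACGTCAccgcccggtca
Zfp36: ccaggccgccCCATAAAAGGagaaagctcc
Egr2: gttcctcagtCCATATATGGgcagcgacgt

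Longer stretches that end at the base before the start site are given for Fos, for the HSP70 pair Hspa1a and Hspa1b, and for Hspb1, the small heat shock protein on which the group comparisons turn. Hspa1a and Hspa1b are inducible HSP70 genes that lie next to each other, and 199 of the 200 bases before their starts were identical (99.5%). Reads may be split between them, so their separate counts are uncertain. The capitals mark the TATA box TATAAA in Fos, which was found in 6 of 33 members and 15.7% of all genes, and an NF-kappa-B site in the HSP70 pair. None of the searched motifs was found in the Hspb1 stretch. Shorter or imperfect copies of the heat shock element were not counted, and the Hspb1 and HSP70 stretches may hold such copies. The positions are chr12:85473740-85473889 (Fos, plus strand), chr17:34972157-34972356 (Hspa1a, minus strand), chr17:34959239-34959438 (Hspa1b, minus strand) and chr5:135887719-135887918 (Hspb1, plus strand).
Fos: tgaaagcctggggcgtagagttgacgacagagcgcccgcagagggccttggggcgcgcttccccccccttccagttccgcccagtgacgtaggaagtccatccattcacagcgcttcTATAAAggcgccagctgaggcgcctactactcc
Hspa1a: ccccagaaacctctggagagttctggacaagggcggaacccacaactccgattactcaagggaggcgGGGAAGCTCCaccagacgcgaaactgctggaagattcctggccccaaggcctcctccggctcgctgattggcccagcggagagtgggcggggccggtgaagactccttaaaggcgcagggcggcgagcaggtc
Hspa1b: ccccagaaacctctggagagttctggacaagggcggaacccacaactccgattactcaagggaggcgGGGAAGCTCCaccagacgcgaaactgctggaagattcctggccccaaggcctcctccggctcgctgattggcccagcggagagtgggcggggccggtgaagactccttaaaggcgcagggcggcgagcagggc
Hspb1: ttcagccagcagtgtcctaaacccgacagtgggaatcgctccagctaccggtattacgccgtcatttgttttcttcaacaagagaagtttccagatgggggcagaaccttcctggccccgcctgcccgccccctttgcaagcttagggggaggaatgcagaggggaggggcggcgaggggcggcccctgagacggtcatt

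The members differed far more between cell classes than between the class-averaged levels of the groups. Averaging over classes can cancel group differences that are present in single classes. Over the 4 classes, the median ratio of the highest to the lowest class mean was 5.81-fold, and 37 of 41 members differed by more than 2-fold. By comparison, the class-averaged group means of a member spanned a median of 0.32 on the log2 scale, with a median SD of 0.15 among the animals of a group. These are descriptions of normalised UMI counts, since cells of one animal are not replicates. The highest and lowest classes named below are those among these 4, and classes found in fewer animals could lie above or below them. The ratios and rankings of classes were not computed over all genes.

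**Figure D1:**
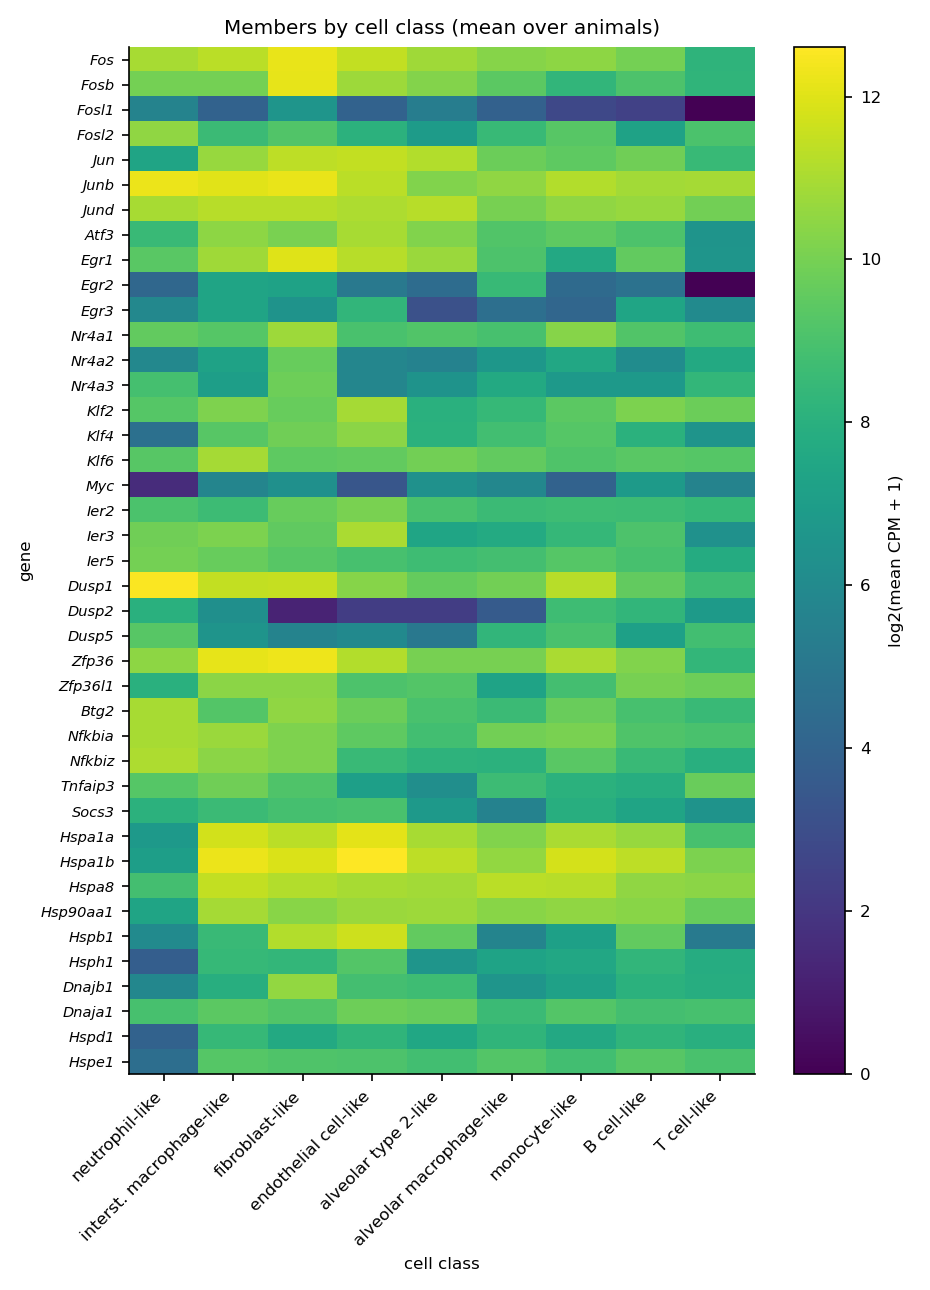
Mean level of each member over animals in 9 cell classes, as log2(mean CPM + 1). In the first 4 columns, the classes found in all 12 animals, neutrophil-like cells are lowest for all 10 heat shock and chaperonin members and highest for all 3 dual specificity phosphatases.

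Of the 4 classes, neutrophil-like cells had the lowest level of heat shock and chaperonin genes, for 10 of 10 members. Summed, they made up 0.133% to 0.182% of UMIs in neutrophil-like cells over the 12 animals, against 1.34% to 2.90% in endothelial-like cells. The 2 ranges did not overlap. The summed immediate early members did overlap, at 2.64% to 4.20% in neutrophil-like and 2.69% to 4.05% in endothelial-like cells. Neutrophil-like cells were also shallow, with a group median of 1439 to 1954 UMIs per cell against 3175 to 6415 in endothelial-like cells, and the part of depth in this contrast was not tested. Being lowest in neutrophil-like cells was not confined to heat shock genes. It held for 24 of all 41 members, a count that includes these 10. Among the immediate early members it held for 4 of 8 AP-1, 3 of 3 EGR and 4 of 4 Kruppel-like and Myc genes. It held for 2 of 3 mRNA decay and antiproliferative genes and 1 of 4 feedback inhibitors of NF-kappa-B and cytokine signaling. For the NR4A, Ier and dual specificity phosphatase genes it held for 0 of 3 each. Among the heat shock genes, Dnaja1 differed by only 1.85-fold over the 4 classes.

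Among the heat shock genes, Hspa1b averaged 6243 ± 1331 CPM in endothelial-like, 4820 ± 940 in interstitial macrophage-like, 3746 ± 724 in fibroblast-like and 132 ± 27.7 in neutrophil-like cells (SD, n = 12 animals). Its near-copy Hspa1a followed the same order, at 4297 ± 979, 3488 ± 564, 2530 ± 506 and 110 ± 22.1 CPM. Hspb1 averaged 3195 ± 805 CPM in endothelial-like, 2289 ± 440 in fibroblast-like, 374 ± 188 in interstitial macrophage-like and 64.6 ± 17.8 in neutrophil-like cells. Of the 8 cytosolic heat shock genes, 5 were highest in endothelial-like cells. Dnajb1, an HSP40 cochaperone, was instead highest in fibroblast-like cells, at 1492 ± 309 CPM against 452 ± 96.6 in endothelial-like and 56.4 ± 21.9 in neutrophil-like cells. Hspa8, the constitutive HSP70, was highest in interstitial macrophage-like cells, at 2845 ± 269 CPM, and was at 464 ± 71.9 in neutrophil-like cells. Hsp90aa1, the inducible cytosolic HSP90, averaged 1944 ± 440 CPM in interstitial macrophage-like, 1677 ± 403 in endothelial-like, 1299 ± 197 in fibroblast-like and 164 ± 41.4 in neutrophil-like cells. For Hsp90aa1 the first 3 classes overlapped in their ranges.

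The AP-1 family was divided between classes. Fos was highest in fibroblast-like cells, at 4751 ± 502 CPM (SD, n = 12), and averaged 2776 ± 504 in endothelial-like, 2544 ± 427 in interstitial macrophage-like and 2005 ± 532 in neutrophil-like cells. Every animal's fibroblast-like level of Fos was above every level in the other 3 classes. Jun, its partner, was close in endothelial-like (2812 ± 478 CPM) and fibroblast-like cells (2579 ± 372), lower in interstitial macrophage-like cells (1598 ± 233) and low in neutrophil-like cells (166 ± 57.9). Atf3, a stress-induced factor of the same superfamily, averaged 1960 ± 437 CPM in endothelial-like, 1398 ± 172 in interstitial macrophage-like, 1079 ± 134 in fibroblast-like and 369 ± 73.0 in neutrophil-like cells. Jund varied least of the 41 members over the 4 classes, by 1.21-fold.

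Egr1, a zinc finger factor induced by growth signals, was highest in fibroblast-like cells (4081 ± 511 CPM) and lowest in neutrophil-like cells (675 ± 224). Among the 4 classes the 3 EGR genes were each lowest there. The 3 NR4A orphan receptors were each highest in fibroblast-like and lowest in endothelial-like cells of these 4 classes. Nr4a1 averaged 1726 ± 169 CPM in fibroblast-like, 767 ± 215 in neutrophil-like, 613 ± 104 in interstitial macrophage-like and 509 ± 118 in endothelial-like cells. Klf4, a quiescence factor of endothelium, averaged 1345 ± 218 CPM in endothelial-like and 24.4 ± 15.4 in neutrophil-like cells. Among the 4 classes the Kruppel-like factors and Myc were lowest in neutrophil-like cells, for 4 of 4 genes.

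The negative regulators did not follow a single order. All 3 dual specificity phosphatases, which switch off MAP kinases, were highest in neutrophil-like cells among the 4 classes. Dusp1 averaged 5924 ± 1038 CPM there, 2915 ± 222 in fibroblast-like, 2823 ± 217 in interstitial macrophage-like and 1277 ± 261 in endothelial-like cells. Nfkbia, which encodes the NF-kappa-B inhibitor I-kappa-B alpha, averaged 1976 ± 214 CPM in neutrophil-like, 1657 ± 201 in interstitial macrophage-like, 1154 ± 117 in fibroblast-like and 723 ± 105 in endothelial-like cells. The antiproliferative gene Btg2 was also highest in neutrophil-like cells (1987 ± 407 CPM). Socs3, a brake on cytokine receptors, differed by less than 2-fold over the 4 classes, from 506 ± 140 CPM in endothelial-like to 275 ± 70.5 in neutrophil-like cells. The mRNA decay genes Zfp36 and Zfp36l1 were instead lowest in neutrophil-like cells, 3.45-fold and 5.29-fold below the highest class. Tnfaip3 was highest in interstitial macrophage-like cells, and Nfkbiz, like Nfkbia, in neutrophil-like cells.

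To compare libraries over the classes together, log2 CPM was averaged with equal weight over the 4 classes of each animal. It was tested with limma over 7301 genes, with each class weighted alike whatever its number of cells. Genes of classes outside the 4 were among the calls. Sftpc, a leading gene of alveolar type 2-like cells, was at -1.07 in LAIR1KO against WT normal lung. Scgb1a1, a leading gene of airway epithelial-like cells, was at 2.19 in the WT and 1.49 in the LAIR1KO tumor comparison. The part of RNA from other cells in these averages, that of Hspb1 included, was not tested. A single class can carry such an average, so a call does not show that all classes share the difference. Few members passed. In LAIR1KO against WT normal lung 0 of 41 members passed an adjusted p of 0.05, where 0.356% of all genes did, and 14 members had an unadjusted p under 0.05. In LAIR1KO against WT tumor-bearing lung 0 members and 0% of all genes passed, with 9 members at an unadjusted p under 0.05. Counts at an unadjusted p, here and below, have no share of all genes beside them and are not results about the members. Tumor-bearing against normal lung gave 2 members in WT (0.288% of all genes) and 1 in LAIR1KO (0.178%). The test of whether the tumor difference depended on genotype gave 1 member (0.151% of all genes). In a simulation of the LAIR1KO against WT comparison in tumor-bearing lung, 2-fold changes in all 4 classes were recovered for 90.8% of 98 genes. The simulation drew each class independently, without an animal effect shared by the classes, so recovery in real animals may be lower. Changes under 2-fold were not simulated.

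**Figure D2:**
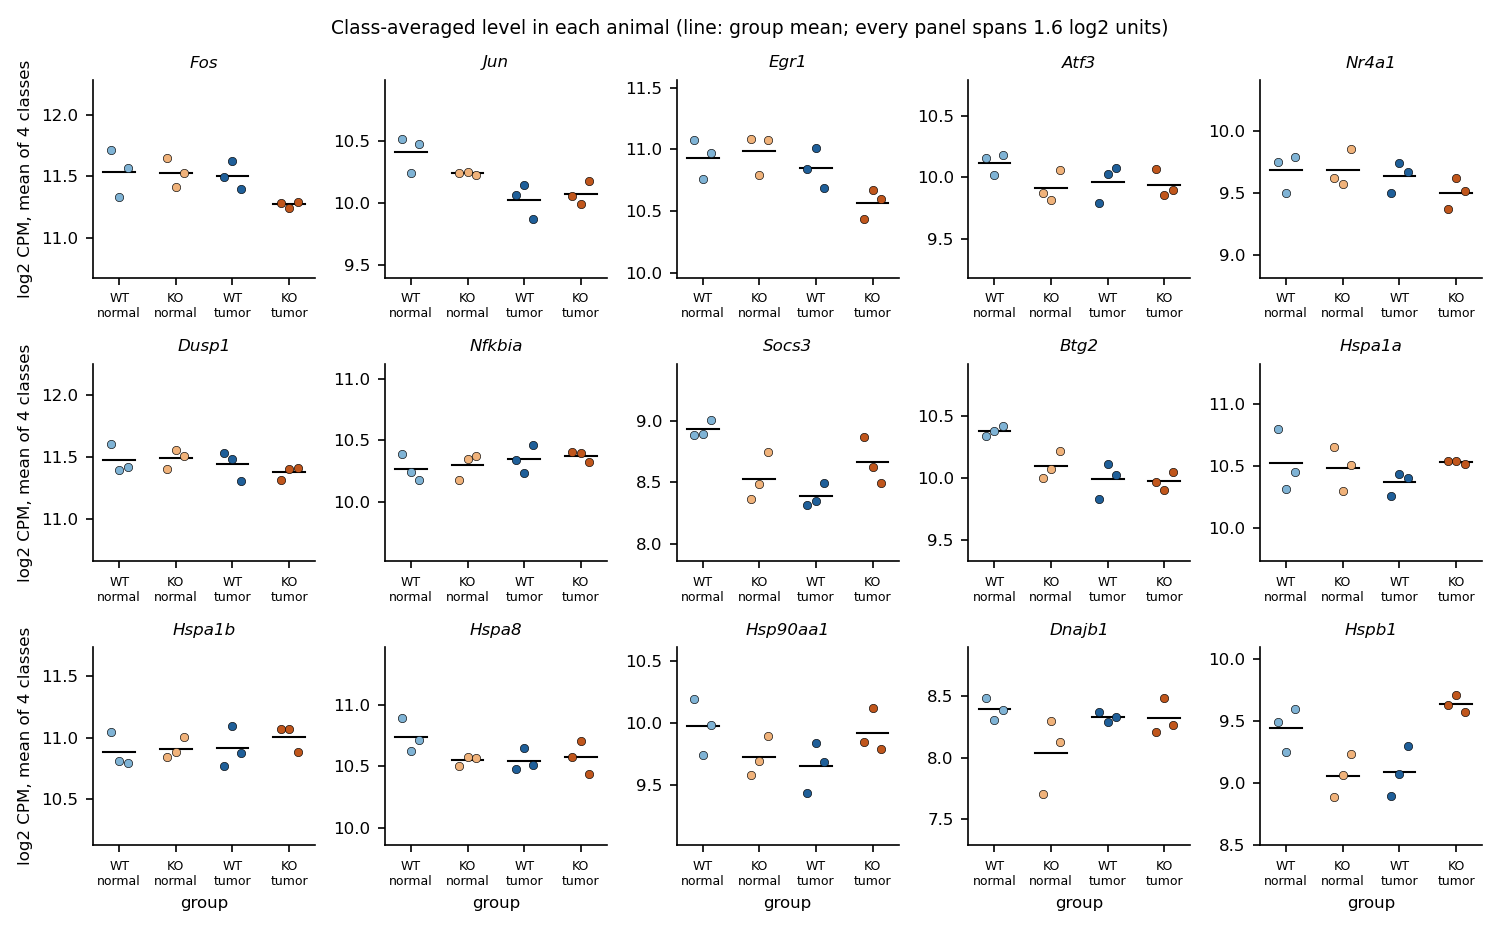
Class-averaged level (log2 CPM, mean of the 4 classes) of 15 members in each of the 12 animals, with points for animals and lines for group means; KO is LAIR1KO and tumor is tumor-bearing, and every panel spans 1.6 log2 units. For Hspb1, 2 of the 3 LAIR1KO tumor-bearing animals lie above the other 9 and the lowest is below 1 WT normal animal; for Fos and Egr1 all 3 lie below the other 9.

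Btg2 and Socs3 fell in WT tumor-bearing lung. Btg2 was at 1295, 1337 and 1372 CPM in WT normal animals and at 911, 1108 and 1043 in WT tumor-bearing animals, without overlap. The log2 difference was -0.39 ± 0.083 (SE, limma adjusted p = 0.0464). Socs3 was at 474, 476 and 514 CPM in WT normal and 319, 326 and 361 in WT tumor-bearing animals, a log2 difference of -0.54 ± 0.106 (limma adjusted p = 0.0231), also without overlap. In LAIR1KO animals the tumor difference did not pass for either gene (-0.12 and 0.13 on the log2 scale), and the genotype dependence did not pass for either (limma adjusted p = 0.583 and 0.109). The Btg2 call was lost when any one of 9 of the 12 animals was left out, with a highest adjusted p of 0.247 without WT tumor-bearing replicate 1. The Socs3 call was lost without each of WT normal replicates 1, 2 and 3 and WT tumor-bearing replicates 1 and 2 (adjusted p 0.0867 to 0.153). The WT groups compared here differ in sex.

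Hspb1 rose in LAIR1KO tumor-bearing lung as a class average. Within single classes edgeR did not call it in the LAIR1KO tumor comparison. As a class average it was at 472, 534 and 602 CPM in LAIR1KO normal animals and at 794, 838 and 762 in LAIR1KO tumor-bearing animals. The log2 difference was 0.58 ± 0.109 (limma adjusted p = 0.0224). In WT the values ran the other way, at 720, 610 and 774 CPM in normal and 476, 537 and 630 in tumor-bearing animals, which overlap. The genotype dependence of the tumor difference was 0.94 ± 0.155 (limma adjusted p = 0.0063). The tumor call in LAIR1KO was lost without LAIR1KO tumor-bearing replicate 1 or 2 (adjusted p 0.0900 and 0.184), and turned to -0.28 (adjusted p = 0.323) when all kept cells of an animal were summed instead of averaged by class. It also was not called, at 0.16 (adjusted p = 0.486), under a coarser clustering that added alveolar type 2-like cells to the 4. In that clustering the genotype dependence was 0.38 (adjusted p = 0.256).

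**Figure D3:**
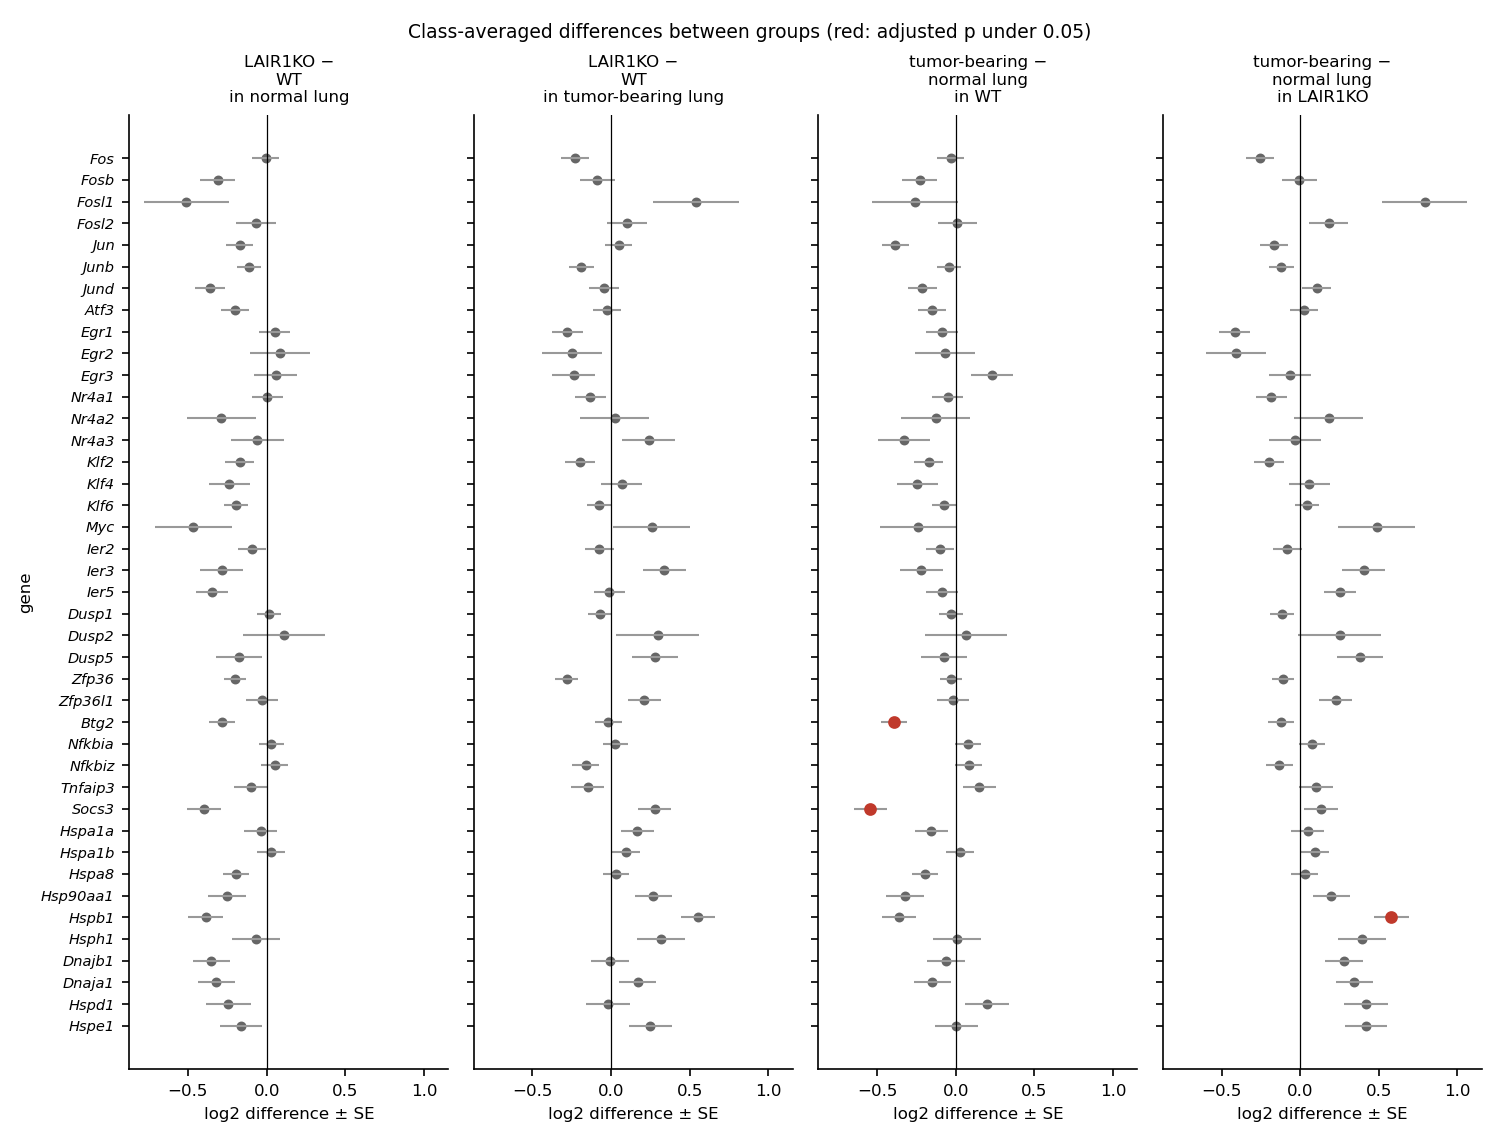
Class-averaged log2 difference (points) and its SE from limma (bars) for every member in the 4 group comparisons. Red marks the calls, Btg2 and Socs3 in WT and Hspb1 in LAIR1KO, and 8 of 8 cytosolic heat shock genes lie above 0 in the LAIR1KO tumor comparison with 1 of them called.

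The other heat shock genes did not pass the test. Hspa1a was at 1780, 1271 and 1403 CPM in WT normal, 1225, 1383 and 1357 in WT tumor-bearing, 1607, 1257 and 1454 in LAIR1KO normal and 1491, 1490 and 1460 in LAIR1KO tumor-bearing animals. Hspa1b was at 2113, 1796 and 1778, at 1746, 2180 and 1883, at 1835, 1886 and 2059 and at 2147, 2147 and 1889 CPM in the same order of groups. The 4 groups overlapped broadly, apart from Hspa1a being higher in every LAIR1KO than in every WT tumor-bearing animal, and no comparison of either gene passed (limma, smallest adjusted p 0.821 and 0.766). Hspa8 was at 1895, 1578 and 1676 CPM in WT normal, 1427, 1606 and 1455 in WT tumor-bearing, 1447, 1522 and 1521 in LAIR1KO normal and 1529, 1673 and 1386 in LAIR1KO tumor-bearing animals. Its level in every LAIR1KO normal animal was below every WT normal animal, a log2 difference of -0.19 ± 0.083 that did not pass. Hsp90aa1 was at 1168, 857 and 1014, at 691, 915 and 822, at 766, 825 and 952 and at 922, 1115 and 885 CPM in the same order, with log2 differences from -0.32 to 0.27. Dnajb1 was at 357, 316 and 335, at 331, 312 and 321, at 208, 314 and 279 and at 296, 358 and 308 CPM, with its lowest animal in LAIR1KO normal lung. Neither gene passed in any comparison (limma, smallest adjusted p 0.476 and 0.354).

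The chaperonin pair with the shared heat shock element had the same difference in the LAIR1KO tumor comparison. Hspe1 was at 262, 219 and 215 CPM in LAIR1KO normal and 300.1, 334 and 293 in LAIR1KO tumor-bearing animals, and Hspd1 at 125, 107 and 121 and at 141, 180.5 and 151. Each was higher in all 3 tumor-bearing animals, by 0.42 on the log2 scale, and neither passed (limma adjusted p = 0.292 and 0.304). In all, the 8 cytosolic heat shock genes had a median log2 difference of 0.24 in this comparison, with 8 of 8 above 0 and 1 called, against a median of 0.03 over all genes tested. In the LAIR1KO against WT comparison in normal lung they had a median of -0.22, with 1 of 8 above 0 and 0 called, against -0.05 over all genes. These 2 comparisons share the LAIR1KO normal animals.

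Among the AP-1 genes, Fos was at 3363, 2580 and 3033 CPM in WT normal, 2888, 3156 and 2703 in WT tumor-bearing, 3216, 2735 and 2951 in LAIR1KO normal and 2492, 2431 and 2515 in LAIR1KO tumor-bearing animals. The LAIR1KO tumor-bearing animals were the lowest 3 of the 12. The log2 differences of this group were -0.23 from WT tumor-bearing and -0.26 from LAIR1KO normal animals (SE 0.088), and neither passed (limma adjusted p = 0.753 and 0.315). Neutrophil-like cells enter this average, and their own Fos and Egr1 differences from WT tumor-bearing lung are given below. Jun was at 1466, 1211 and 1425 CPM in WT normal, 1069, 1133 and 937 in WT tumor-bearing, 1212, 1219 and 1199.6 in LAIR1KO normal and 1065, 1018 and 1156 in LAIR1KO tumor-bearing animals. Every tumor-bearing animal was below every normal animal, and the difference came nearest to a call in WT, at -0.39 ± 0.086 (limma adjusted p = 0.0597). Atf3 was at 1139.5, 1035 and 1164, at 887, 1045 and 1081, at 936, 904 and 1066 and at 1075, 929 and 952 CPM in the order of groups used for Fos. Its groups overlapped in all 4 comparisons.

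Egr1 was at 2153, 1730.05 and 2001 CPM in WT normal, 1830.35, 2064 and 1650.3 in WT tumor-bearing, 2170.5, 1773 and 2157 in LAIR1KO normal and 1388, 1627 and 1547 in LAIR1KO tumor-bearing animals. Here too the LAIR1KO tumor-bearing animals were the lowest 3 of the 12, at -0.42 ± 0.0996 from LAIR1KO normal animals (limma adjusted p = 0.142). The 3 EGR genes were all below 0 in this comparison, with a median of -0.41 and 0 called. Nr4a1 was at 864, 726 and 889, at 723, 855 and 814, at 790.4, 764 and 930.1 and at 662, 788 and 735 CPM in the order of groups used for Fos. Dusp1 was at 3107, 2697 and 2737, at 2967, 2869 and 2537, at 2705, 3007 and 2915 and at 2549, 2703 and 2719.6 CPM in that order. Nfkbia was at 1339, 1214 and 1157, at 1297, 1208 and 1412, at 1157, 1307 and 1326 and at 1358, 1349 and 1278 CPM. These 3 genes overlapped in every comparison, with log2 differences between -0.18 and 0.08.

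Counted by ranges that did not overlap, LAIR1KO normal lung was below WT normal lung for 9 members, where 13% of all genes separated in either direction. In LAIR1KO against WT tumor-bearing lung 4 members were lower (Fos, Junb, Egr1 and Zfp36, the last an mRNA decay factor) and 4 higher (Ier3, Zfp36l1, Hspa1a and Hspb1), against 12.2% of all genes. In the tumor comparison 8 members were lower in WT (15.5% of all genes). In LAIR1KO 4 were lower (Fos, Jun, Egr1 and Klf2) and 5 higher (Myc, Hspb1, Hsph1, Hspd1 and Hspe1), against 11.9%. The median difference of the 41 members in these 4 comparisons was -0.17, 0.02, -0.09 and 0.07 on the log2 scale, beside -0.05, 0.01, -0.02 and 0.03 over all genes tested.

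Among related genes outside the 41, Cebpd and Ubb were called, each in the WT tumor comparison. There 0.288% of all genes passed by limma. Of 33 other immediate early genes tested, 1 passed in any of the 4 comparisons, the C/EBP factor Cebpd, which fell in WT tumor-bearing lung (-0.46 ± 0.090, limma adjusted p = 0.0231). Of 31 genes on a list of other chaperones and cochaperones, 1 passed. This was Ubb, which encodes polyubiquitin rather than a chaperone and fell in the same comparison (-0.43 ± 0.080, limma adjusted p = 0.0132). Of 14 upstream regulators, among them the heat shock factors and serum response factor, 0 passed by limma. Their log2 differences ranged from -0.29 to 0.43.

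Type-specific differences were tested with animal and class as terms, over 9333 genes in the same 4 classes. Hspb1 was the member called, in LAIR1KO against WT normal lung (F = 7.97, edgeR adjusted p = 0.0156, where 1.38% of all genes passed), in the LAIR1KO tumor comparison (F = 7.21, adjusted p = 0.0201, 1.95% of genes) and in the genotype dependence (F = 8.54, adjusted p = 0.0333, 0.246% of genes). In LAIR1KO against WT tumor-bearing lung 0 members passed (0.0321% of genes), with 6 at an unadjusted p under 0.05, and in the WT tumor comparison 0 passed (0.204%), with 10. In the simulated comparison this edgeR test recovered 9% of 100 genes changed 2-fold in neutrophil-like cells alone and 44.4% of 99 changed 4-fold, so most changes of these sizes in 1 class would be missed.

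**Figure D4:**
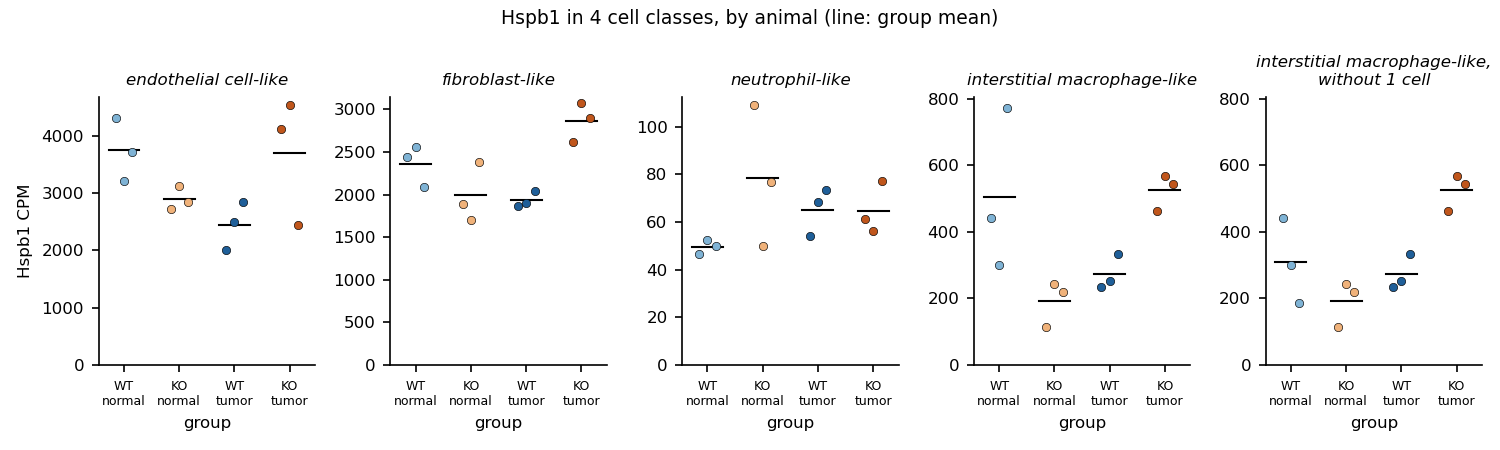
Hspb1 in CPM in each animal (points, with lines for group means) in 4 cell classes, each on its own axis from 0, and in the macrophage-like class again without 1 cell. WT normal replicate 3 moves from 771 to 185 CPM in the last panel.

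Within single classes, Hspb1 was called in interstitial macrophage-like cells, in LAIR1KO against WT normal lung and for the genotype dependence. It was at 442, 299 and 771 CPM in WT normal, 113, 244 and 218 in LAIR1KO normal, 234, 251.06 and 333 in WT tumor-bearing and 464, 569 and 545 in LAIR1KO tumor-bearing animals. All 3 LAIR1KO normal animals were below all WT normal animals, a log2 difference of -1.29 (edgeR adjusted p = 0.0281, where 0.528% of genes passed). The genotype dependence of the tumor difference was 2.23 (edgeR adjusted p = 0.0020, 0.739% of genes). In endothelial-like cells the same dependence was 0.99, in fibroblast-like cells 0.90 and in neutrophil-like cells -0.48, none of them called (edgeR adjusted p = 0.357, 0.190 and 0.618).

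Part of this rested on 1 cell. In WT normal replicate 3, 1 of 73 interstitial macrophage-like cells held 271 of the 353 Hspb1 UMIs (76.8%), and the next highest cell of the class held 61. This cell had 13941 UMIs, of which 6.39% came from the other heat shock members, against a median of 0.92% in the other cells of the class. Interstitial macrophage markers were at 38.0 per 10000 UMIs in it, against a median of 394, with 11 of 14 detected, and 0 of 13 fibroblast markers and 2 of 24 endothelial markers had a UMI. It was clustered with the macrophage-like cells, and its type is uncertain. Without this cell the replicate was at 185 CPM, and the LAIR1KO against WT difference in normal lung was -0.61 (edgeR adjusted p = 0.370). The test among classes was then not called in that comparison (F = 2.40, adjusted p = 0.640) or for the genotype dependence (F = 4.06, adjusted p = 0.377). It was still called in the LAIR1KO tumor comparison (F = 7.91, adjusted p = 0.0117). The genotype dependence in interstitial macrophage-like cells was 1.55 (adjusted p = 0.0273) without the cell. The class-averaged dependence was 0.77 (limma adjusted p = 0.0609), and the class-averaged tumor difference in LAIR1KO stayed at 0.58 (limma adjusted p = 0.0321).

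Leaving out whole animals ended the same calls in part. The macrophage-like difference in normal lung was lost without WT normal replicate 3 (-0.85, edgeR adjusted p = 0.0679) or any of the 3 LAIR1KO normal animals (adjusted p 0.0694 to 0.119). The test among classes in normal lung was lost without WT normal replicate 3 or LAIR1KO normal replicate 1 or 3 (adjusted p 0.0977 to 0.403). In the LAIR1KO tumor comparison it was lost without LAIR1KO normal replicate 1 or 3 or LAIR1KO tumor-bearing replicate 3 (adjusted p 0.0951 to 0.143). For the genotype dependence it was lost in 8 of 12 omissions, with a highest adjusted p of 0.195 without WT normal replicate 3. The genotype dependence in macrophage-like cells remained called in 12 of 12 omissions (1.80 to 2.48).

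The macrophage-like class joined 3 clusters whose shares differed by group. Cluster 6 was the largest in WT normal (50.6%) and LAIR1KO tumor-bearing lung (45.7%), and cluster 7 in LAIR1KO normal (42.6%) and WT tumor-bearing lung (44.5%). In normal lung the Hspb1 difference was -2.74 in cluster 7 (edgeR adjusted p = 0.0084), which holds the cell above, and 0.29 and 0.0476 in clusters 6 and 12 (adjusted p = 0.912 and 0.998). Animals with under 10 cells were left out, so clusters 7 and 12 were tested on 2 animals per normal group, and cluster 6 on 3 WT and 2 LAIR1KO normal animals. Cells without a hashtag call, which belong to no animal, gave summed Hspb1 levels of 369 CPM in WT normal, 388 in LAIR1KO normal, 356 in WT tumor-bearing and 484 in LAIR1KO tumor-bearing lung. There the 2 normal libraries were close, whereas the cells with a hashtag gave 504 and 215 CPM, or 342 and 215 without the 1 cell described above.

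Within single classes, 1222 tests of members over up to 10 classes and 5 contrasts gave 10 calls, beside 0.347% of all gene and class tests. Those in macrophage-like cells are given above. In endothelial-like cells 0 members were called by edgeR in any contrast, with 4 to 13 at an unadjusted p under 0.05, and in fibroblast-like cells 0, with 5 to 9. Over all classes DESeq2 called 2 of 192 member tests in LAIR1KO against WT normal lung (1.04%, beside 0.532% of all gene and class tests) and 4 of 360 in tumor-bearing lung (1.11%, beside 0.0965%). It called 5 of 252 in the WT tumor comparison (1.98%, beside 0.599%), 2 of 182 in the LAIR1KO tumor comparison (1.10%, beside 0.632%) and 4 of 178 for the genotype dependence (2.25%, beside 0.475%).

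**Figure D5:**
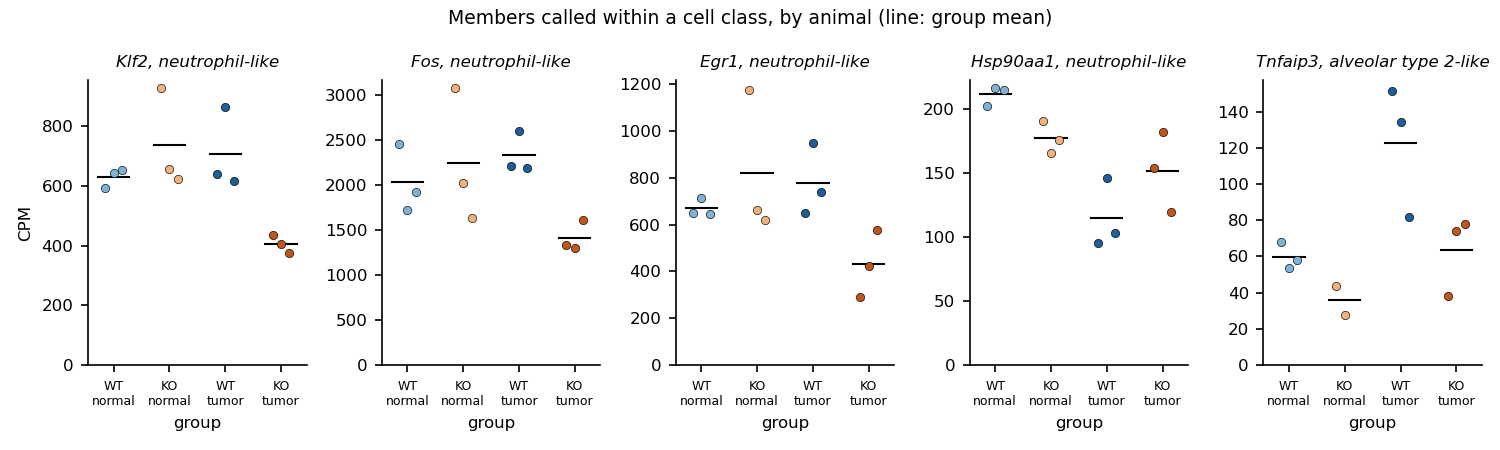
Members called within a class other than Hspb1, in CPM in each animal (points) with lines for group means. Klf2, Fos and Egr1 in neutrophil-like cells lie lower in every LAIR1KO tumor-bearing animal than in every WT tumor-bearing animal.

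In neutrophil-like cells, 3 immediate early factors were lower in LAIR1KO than in WT tumor-bearing lung, where 0.419% of genes passed. Klf2, a factor of leukocyte quiescence and trafficking, was at 640.5, 864 and 617 CPM in WT and 438, 406 and 377 in LAIR1KO tumor-bearing animals, a log2 difference of -0.76 (edgeR adjusted p = 0.0086). Fos was at 2213, 2602 and 2193 CPM against 1331, 1303 and 1605, a difference of -0.70 (edgeR adjusted p = 0.0273). Egr1 was at 649, 949 and 738 CPM against 292, 425 and 578, a difference of -0.88 (edgeR adjusted p = 0.0275). None of the 3 pairs of groups overlapped, and this comparison is matched for sex. In endothelial-like, fibroblast-like and interstitial macrophage-like cells the same 3 genes differed by -0.19 to 0.08 on the log2 scale. The test among these classes did not pass for Klf2, Fos or Egr1 (edgeR adjusted p = 0.964, 0.991 and 0.969). T cell-like cells, where most members were lower in LAIR1KO, are described below. The 3 differences are therefore not shown to be particular to neutrophil-like cells.

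Klf2 also fell in the LAIR1KO tumor comparison, from 928, 658 and 623 CPM in LAIR1KO normal animals (-0.73, edgeR adjusted p = 0.0178, 0.270% of genes). The genotype dependence passed for Klf2 (-0.95, adjusted p = 0.0267) and for Egr1 (-1.10, adjusted p = 0.0433), where 0.689% of genes did. WT normal animals were at 595, 643 and 652 CPM for Klf2 and 651, 714 and 644 for Egr1, and LAIR1KO normal animals at 1174, 663 and 621 for Egr1.

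The neutrophil-like class joined clusters 0, 5 and 9, and cluster 9 held 16.2% of neutrophil-like cells in LAIR1KO tumor-bearing lung against 25.5% to 28.6% in the other groups. Within cluster 0 alone the differences from WT tumor-bearing lung were -0.37 for Klf2, -0.48 for Fos and -0.50 for Egr1 (edgeR adjusted p = 0.598, 0.503 and 0.593), and within cluster 9 alone -1.11, -0.73 and -0.63 (adjusted p = 0.271, 0.264 and 0.681). Cluster 0 had 89 to 118 cells per WT and 102 to 233 per LAIR1KO tumor-bearing animal, and cluster 9 had 27 to 62 and 26 to 35. Fewer cells and the makeup of the class cannot be told apart here. Without cluster 5, in which hashtag doublets were common, Fos was still called (-0.76, adjusted p = 0.0212), and Klf2 and Egr1 were not (adjusted p = 0.0917 and 0.0604). Summed interstitial macrophage markers in neutrophil-like cells were at 4.36 to 9.34 per 10000 UMIs in LAIR1KO tumor-bearing lung and at 3.33 to 4.73 in the other groups, with 14 of 14 markers detected, and their part in the result was not tested.

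The Klf2 difference from WT was lost without WT tumor-bearing replicate 2 (-0.59, edgeR adjusted p = 0.220) and without LAIR1KO tumor-bearing replicate 2 or 3. The Fos and Egr1 differences were each lost in 6 of 12 omissions, with the highest adjusted p without WT tumor-bearing replicate 2 (0.220 and 0.268). The Klf2 tumor difference in LAIR1KO was lost without LAIR1KO normal replicate 1 or 2 or LAIR1KO tumor-bearing replicate 2 or 3 (adjusted p 0.0670 to 0.117). The genotype dependence was lost in 7 of 12 omissions for Klf2 and in 10 of 12 for Egr1.

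Hsp90aa1 fell in neutrophil-like cells of WT tumor-bearing lung, at 203, 217 and 215 CPM in normal and 95.7, 146 and 104 in tumor-bearing animals. The log2 difference was -0.80 (edgeR adjusted p = 0.0185, where 1.83% of genes passed). The LAIR1KO animals were at 191, 166 and 176 CPM in normal and 154, 182 and 120 in tumor-bearing lung, and the lowest of them was inside the range of WT tumor-bearing animals. The call held in cluster 0 alone (-1.06, adjusted p = 0.0107) and was lost in cluster 9 alone (-0.38, adjusted p = 0.819) and without WT normal replicate 2 or 3 or WT tumor-bearing replicate 1 or 3 (adjusted p 0.0552 to 0.0975).

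Tnfaip3, which encodes the NF-kappa-B inhibitor A20, rose in alveolar type 2-like cells of WT tumor-bearing lung. It was at 67.8, 53.7 and 57.8 CPM in normal and 151, 134 and 81.9 in tumor-bearing animals, a log2 difference of 0.93 (edgeR adjusted p = 0.0379, where 0.589% of genes passed). Single cells held up to 38.5% of an animal's Tnfaip3 UMIs in the compared groups. Without cells that Scrublet marks as doublets the difference was 0.47 (adjusted p = 0.765), and it was lost in 6 of 12 omissions, with a highest adjusted p of 0.282 without WT normal replicate 2.

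The members did not lean the same way in every class. In LAIR1KO against WT normal lung, 35 of 38 members tested were lower in endothelial-like cells, 28 of 40 in fibroblast-like, 25 of 41 in interstitial macrophage-like and 14 of 35 in neutrophil-like cells, with medians of -0.28, -0.15, -0.09 and 0.09 on the log2 scale. In tumor-bearing lung the same comparison had 12 of 38, 8 of 40, 28 of 41 and 26 of 35 lower, with medians of 0.14, 0.13, -0.13 and -0.10. Over all genes of these classes the medians were between -0.0029 and 0.006. In T cell-like cells of tumor-bearing lung, tested on 5 animals with 11 to 20 cells each, 30 of 33 members were lower in LAIR1KO, with a median of -0.83 beside -0.06 over all genes and 0 called by edgeR (13 at an unadjusted p under 0.05).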

How the data were processed

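Lung cells of 4 groups were measured as 4 single-cell RNA libraries with hashtag antibodies, 3 animals each. The authors deposited raw UMI counts per gene and hashtag and barcode; per the submitters' processing notes these come from Cell Ranger 4.0.0 with STAR and the mm10 build, and R 4.0.0 with Seurat 3.2.0 are also listed there. Barcodes with under 300 genes or over 10% mitochondrial UMIs were left out, and 30 of 16320 distinct barcodes occurred in more than one library. Seurat 5.3.0 (HTODemux) assigned hashtags, leaving out 2963 cells with more than 1 hashtag and 4362 with none. Scrublet marked 339 cells, which were kept. Clustering (scanpy 1.11.5, Leiden, resolution 1, 32 clusters) left out the members and related lists, and clusters were named from listed markers.

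Counts were summed per animal and class with at least 10 cells. edgeR 4.0.16 (quasi-likelihood, TMM, filterByExpr) tested classes singly and differences among classes, and limma 3.58.1 (trend, prior count 2) the class-averaged log2 CPM. p-values were Benjamini-Hochberg adjusted over all genes of a fit, two-sided, with a threshold of 0.05. "Genotype dependence" is the interaction of genotype and tumor. The tests were tried on simulated counts. DESeq2 1.42.0, other normalization, filters, hashtag rule, doublets, clustering and omission of each animal were alternatives. Promoter bases come from RefSeq (GRCm38.p6). Unnamed clusters were left out of class tests.

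The members, roles and related lists were chosen with earlier results of these data known. Named with full values are called members and 12 listed genes (Fos, Jun, Egr1, Atf3, Nr4a1, Dusp1, Nfkbia, Hspa1a, Hspa1b, Hspa8, Hsp90aa1 and Dnajb1). The removal of 1 cell of the macrophage-like class and the tests in single clusters were chosen after seeing the data.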

Additional observations from a re-analysis of the deposited data

Results flagged for a closer look

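For 4 results the tumor difference itself differed between genotypes by an interaction term. The class-averaged Hspb1 level had an interaction of 0.94 on the log2 scale (limma adjusted p = 0.0063), and Hspb1 in interstitial macrophage-like cells one of 2.23 (edgeR adjusted p = 0.0020). Without the 1 cell of this class that held 76.8% of its animal's Hspb1 UMIs, whose type is uncertain, these were 0.77 (adjusted p = 0.0609) and 1.55 (adjusted p = 0.0273). In neutrophil-like cells the interaction was -0.95 for Klf2 (edgeR adjusted p = 0.0267) and -1.10 for Egr1 (edgeR adjusted p = 0.0433). The Klf2 and Egr1 calls were lost in most omissions of single animals, as given above. The class-averaged Hspb1 interaction was not called under the coarser clustering. WT normal animals, the male group, enter all 4 values, and the part of sex in them cannot be told apart from that of the group.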

How the results depend on the processing

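Counts of called members are given here for 5 contrasts, in the order A (LAIR1KO against WT in normal lung), B (the same in tumor-bearing lung), C (the WT tumor comparison), D (the LAIR1KO tumor comparison) and E (the genotype dependence). They were 0, 0, 2, 1 and 1 in the class-averaged comparison, 1, 0, 0, 1 and 1 among classes and 1, 3, 2, 1 and 3 within classes. Over alternatives other than omitted animals, 94 of 172 counts stayed within 1.5 times and 78 moved, and single members stayed called in 129 of 218 cases, fell below the threshold in 86 and reversed in 3. Omitting each animal kept 117 of 180 counts and 124 of 204 calls of single members. Omitting an animal gave 0 to 3, 0 to 1, 0 to 3, 0 to 2 and 1 to 3 class-averaged calls, 0 to 1, 0, 0 to 1, 0 to 2 and 0 to 2 among classes, and 0 to 3, 0 to 5, 0 to 3, 0 to 6 and 1 to 7 within classes.

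For class-averaged counts, at least 20 cells, immune classes alone and non-immune classes alone each gave 0 in both tumor comparisons and 0 for the dependence. The coarser clustering and clustering with the members both gave 0 in the LAIR1KO tumor comparison, and prior count 0.5 gave 1 in WT and 0 in LAIR1KO. The mitochondrial limit of 5% gave 1, 0 and 0 in C, D and E, no filter 0 and 0 in the tumor comparisons, and the fit of only the groups compared 1 in LAIR1KO against WT tumor-bearing lung. Assigning hashtags by the most UMIs gave 3 in LAIR1KO against WT normal lung, 4 in the LAIR1KO tumor comparison and 2 for the dependence, and summing all kept cells gave 0 in WT, 5 in LAIR1KO and 0 for the dependence. Leaving out 1 cell of the macrophage-like class gave 0 for the dependence.

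For counts among classes, DESeq2 size factors gave 0 in the LAIR1KO tumor comparison and 2 for the dependence, at least 20 cells 0 in A and D and 2 in E, and hashtags by the most UMIs 0 in A and 1 in B. The coarser clustering gave 5, 0, 1, 4 and 3, clustering with the members 5, 4 and 3 in A, D and E, and no filter 1, 1, 3 and 2 in B to E. The 5% mitochondrial limit gave 0 in A and D, the groups compared alone 2 in D, removal of Scrublet doublets 2 in E, and leaving out that cell 0 in A and E.

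For counts within classes, no filter gave 18, 12, 20, 19 and 19, DESeq2 2 in A, 5 in C and 2 in D, DESeq2 size factors 2 in A and at least 20 cells 0 in A. The coarser clustering gave 4 in A and 3 in D, clustering with the members 3, 1, 4 and 0 in A, C, D and E, and hashtags by the most UMIs 0, 3 and 5 in C, D and E. The 5% mitochondrial limit gave 3, 0 and 1 in A, B and C, the groups compared alone 7 in C and 3 in D, removal of Scrublet doublets 2, 1 and 2 in A, C and D, and leaving out that cell 0 in A. Hspb1 reversed to -0.28 in the class-averaged LAIR1KO tumor comparison on summed cells, and to 0.29 and 0.0476 in macrophage clusters 6 and 12 in normal lung. The cause of these moves was not tested, apart from the fewer cells or classes that some settings leave by construction. Except for the main settings and DESeq2, shares of all genes called are not given. Moved counts therefore cannot be read as particular to the members.

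No paired analysis was possible because the hashtag numbers mark different animals in each library and pair no samples across groups. What depth, the number of cells and the spread between animals each limit was not separated. In single classes, simulated 2-fold changes in LAIR1KO against WT tumor-bearing lung were recovered for 59.5% of 42 genes in neutrophil-like and 65.9% of 88 in interstitial macrophage-like cells.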

Other observations

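Monocyte-like, B cell-like, natural killer cell-like and alveolar macrophage-like cells were tested in the contrasts their cell numbers allowed, and edgeR called 0 members there. In monocyte-like cells 4 members had an unadjusted p under 0.05 in each of 2 contrasts, with a smallest adjusted p of 0.153. In the B cell-like class of WT lung, 28 of 39 members were lower with a tumor, at a median of -0.36 on the log2 scale beside -0.03 over all genes, and 0 had an unadjusted p under 0.05.

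Over the 12 cell classes with at least 10 cells in some animal, 13 members were highest in endothelial-like, 8 in fibroblast-like, 8 in neutrophil-like, 4 in interstitial macrophage-like and 3 in dendritic cell-like cells, and 8 members had a first class whose animals did not overlap those of the second. The ratio of Hspa1b to Hspa1a UMIs differed between classes, from 1.20 in neutrophil-like to 2.41 in natural killer cell-like cells.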
